A study of Mus musculus with 2 samples.

Results

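A set of 10 genes that macrophages use for complement, antigen presentation and growth factor sensing were followed through the cells of mouse testis with and without Alkbh5, the enzyme that removes N6-methyladenosine from RNA. The genes were taken by symbol from a list of names and are 10 of the 36547 genes in the count tables: C1qa, C1qb, C1qc, Cd74, H2-Aa, H2-Ab1, H2-Eb1, Csf1r, Csf1 and Mrc1. Testes of 12-week-old C57BL/6 mice had been dissociated and their single cells sequenced as 1 library from wild type (WT) and 1 from Alkbh5-/- knockout (KO) animals. The knockout was in the germline, so every cell type of the KO testis lacked the gene, macrophages included. The study describes its animals both as 1 mouse and as 3 mice per genotype, so whether a library was a pool is not clear. With 1 library for each genotype, no test between WT and KO was possible. Every interval given below is a 95% interval for counting error only, from the number of unique molecular identifiers (UMIs, each 1 captured RNA molecule) or of barcodes (each taken as 1 cell).

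C1q is the recognition molecule of the classical complement pathway, and each C1q molecule is assembled from the chains encoded by C1qa, C1qb and C1qc, which resident macrophages make together. MHC class II molecules hold peptides for CD4 T cells. H2-Aa encodes the α chain of I-A, H2-Ab1 its β chain and H2-Eb1 the β chain of I-E, while Cd74 encodes the invariant chain that escorts these chains to the endosome. Csf1r is the receptor through which the growth factor Csf1 keeps macrophages alive, and Mrc1 encodes the mannose receptor CD206, an endocytic lectin. Testicular macrophages sit between the Leydig cells of the interstitium and on the wall of the seminiferous tubules, and both sites lie outside the tubules in which germ cells develop.

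The 3 C1q genes lay side by side on the minus strand of chromosome 4, with C1qb at chr4:136880129-136886187, C1qc at chr4:136889804-136893065 and C1qa at chr4:136895917-136898803 (GRCm38). The gaps between them were 3616 and 2851 bp. On chromosome 17 lay H2-Ab1 at chr17:34257689-34269419 (plus strand), H2-Aa at chr17:34282744-34287823 (minus) and H2-Eb1 at chr17:34305867-34316674 (plus). No annotated gene overlapped C1qb or H2-Ab1, the members found in germ cells. The 150 bases before the RefSeq start (GRCm38.p6) of 4 members are shown because these class II genes had like profiles across the cell clusters while C1qb parted from C1qc. Searching 250 bases before each start on both strands, CTGATTGG (reverse CCAATCAG), the Y box of class II promoters and a form of the CCAAT box, stood 51 bp before the start of H2-Aa and 62 bp before that of H2-Eb1. It was in 3.83% of 32851 mouse promoters and in neither C1q promoter. Of the other class II family promoters searched, those of H2-Oa and H2-Eb2 had it and those of H2-DMb1 and H2-Ob did not. GGAAGT (reverse ACTTCC), a core bound by PU.1 and other ETS factors, was in 19.7% of all promoters. It stood 53 bp before C1qb, and 195 bp before C1qc and so beyond the bases shown. The promoters of Mrc1 and H2-Oa also had it, and those of H2-Aa and H2-Eb1 did not. Capitals mark CTGATTGG in the class II promoters and GGAAGT, here on the reverse strand, in C1qb. The windows are chr17:34287824-34287973 (minus) for H2-Aa, chr17:34305717-34305866 (plus) for H2-Eb1, chr4:136886201-136886350 (minus) for C1qb and chr4:136892915-136893064 (minus) for C1qc. 
H2-Aa: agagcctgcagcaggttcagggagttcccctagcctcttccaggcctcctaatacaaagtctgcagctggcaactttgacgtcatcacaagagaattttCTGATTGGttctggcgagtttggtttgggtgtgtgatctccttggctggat
H2-Eb1: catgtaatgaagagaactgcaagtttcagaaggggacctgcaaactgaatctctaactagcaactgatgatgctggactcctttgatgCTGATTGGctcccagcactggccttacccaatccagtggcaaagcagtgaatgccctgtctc
C1qb: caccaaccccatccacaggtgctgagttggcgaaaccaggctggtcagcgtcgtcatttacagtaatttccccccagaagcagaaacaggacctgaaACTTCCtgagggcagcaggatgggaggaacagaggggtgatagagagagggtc
C1qc: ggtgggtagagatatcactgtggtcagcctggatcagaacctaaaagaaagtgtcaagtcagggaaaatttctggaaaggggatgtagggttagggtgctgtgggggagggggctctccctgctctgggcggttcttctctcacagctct

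The WT library held 5756 barcodes and 80283221 UMIs, the KO library 7012 barcodes and 82056760 UMIs. Alkbh5 had 607 UMIs in the WT library and 5 in the KO library. Clustering gave 17 clusters, of which 1 carried macrophage markers, and 45 barcode sequences occurred in both libraries. The macrophage-like class held 26 barcodes in WT and 81 in KO, with 325481 and 801601 UMIs and medians of 8467.5 and 7249 UMIs per barcode. It expressed 19 of 20 macrophage markers, a list that contained none of the 10 members, although C1qc was among the genes that set the cluster apart. The class was not pure. Peritubular (smooth muscle) markers such as Acta2 had UMIs for 8 of 8 genes in both libraries, at 1349 CPM in WT and 3221 CPM in KO (CPM, counts per 1000000 UMIs of the class). They were concentrated in 2 WT and 11 KO barcodes that had fewer than 3 macrophage markers and no C1q UMI. The values below are therefore also given for the 24 WT and 70 KO barcodes with at least 3 macrophage markers.

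Markers of other cells were also present in the macrophage-like class. All 25 sperm markers had UMIs there, at 86672 CPM in WT and 51660 CPM in KO. Lymphoid markers had 81 UMIs from 12 of 21 genes in WT and 128 from 14 of 21 in KO, with the B cell genes Cd79a and Ms4a1 at 0 in both. Dendritic cell markers had 26 UMIs from 6 of 12 genes and 111 from 8 of 12. Of these, Flt3, Clec9a and Ccl22 were at 0 in both, Cd209a, Itgax and Siglech in WT alone and Xcr1 in KO alone. Leydig cell markers had 95.2 CPM in WT and 901 CPM in KO. The part of these cells or of free RNA in the values below was not tested.

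The members differed in where their UMIs were found. C1qa, C1qc and Csf1r were nearly restricted to the macrophage-like class, which held 93.9%, 96.4% and 93.3% of their WT UMIs and 80.5%, 85.6% and 77.0% of their KO UMIs. This class made up 0.405% of all WT UMIs and 0.977% of all KO UMIs. Cd74, H2-Aa and H2-Eb1 were also richest there, with 497 of 540, 186 of 239 and 101 of 139 of their WT UMIs but 60.8%, 58.1% and 53.3% of their KO UMIs. C1qb and H2-Ab1 had most of their WT UMIs in germ cells, and the class held 20.4% and 8.69% of them in WT and 58.0% and 21.9% in KO. Mrc1 was shared with Sertoli-like cells. Csf1 was found in Leydig-like cells and was nearly absent from macrophage-like cells.

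**Figure D1:**
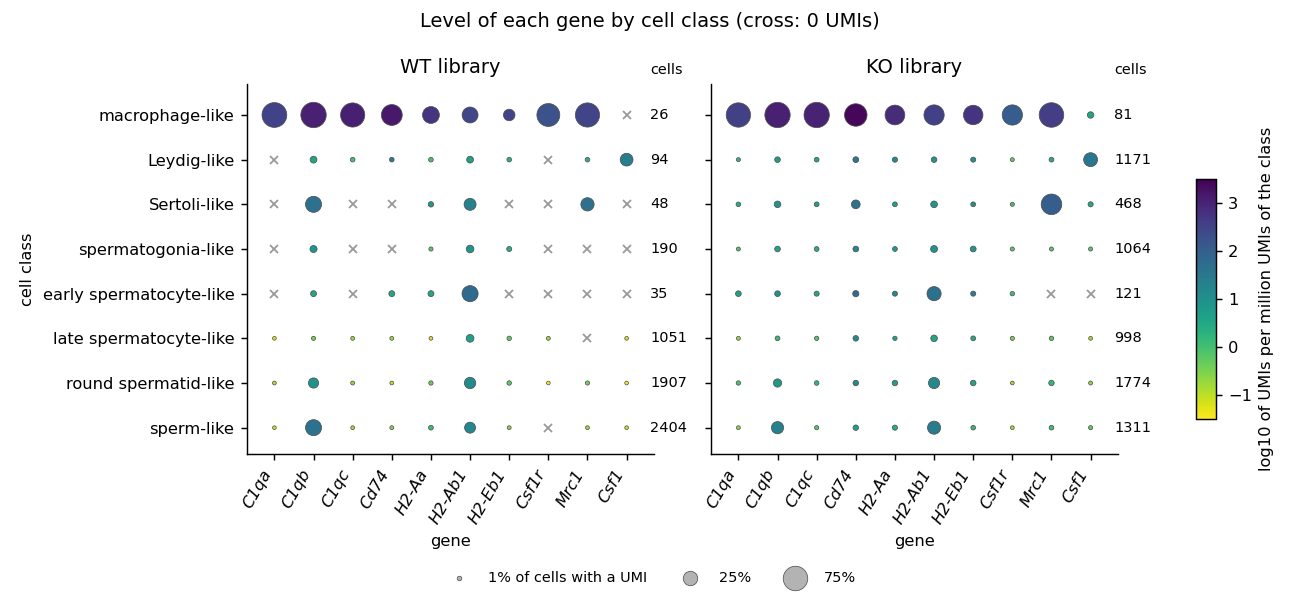
Level of each of the 10 genes in 8 cell classes of the WT (left) and KO (right) testis, with colour giving log10 CPM, dot area the percentage of cells with at least 1 UMI and a cross a gene with 0 UMIs. C1qa, C1qc and Csf1r stand out in macrophage-like cells alone, C1qb and H2-Ab1 are also present from round spermatids to sperm, Mrc1 in Sertoli-like and Csf1 in Leydig-like cells. The endothelial-like class (1 WT and 24 KO cells) is not shown.

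Few genes were this concentrated in so small a class. Of the genes with at least 100 UMIs in the library, 0.157% had 50% or more of them in the macrophage-like class in WT (23 of 14688) and 0.27% in KO (46 of 17028). Of the members with that many UMIs, 6 of 8 met this in WT and 7 of 10 in KO.

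No other member was detected in more macrophage-like barcodes than C1qb. C1qb had 365 UMIs in 21 of 26 WT barcodes (80.8%) and 868 UMIs in 65 of 81 KO barcodes (80.2%). C1qc had 378 UMIs in 19 WT barcodes and 824 in 65 KO barcodes, and C1qa had 107 UMIs in 20 and 269 in 60. All 3 genes were detected together in 19 of 26 WT and 60 of 81 KO barcodes, so detection of one chain mostly went with detection of the others. In sperm-like cells, which are germ cells and not macrophages and served as the background, C1qa had 2 UMIs in 2404 WT cells and 3 in 1311 KO cells at medians of 8921.5 and 8377 UMIs per cell. Per barcode, the summed C1q count had a median of 38.5 UMIs in WT and 22 in KO.

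The class level of C1q was nearly the same in the libraries. C1qa stood at 328.7 CPM (269.4 to 397.3) in WT and 335.6 CPM (296.7 to 378.2) in KO, a KO/WT log2 ratio of 0.030 (−0.30 to 0.37). C1qb stood at 1121 and 1083 CPM, a log2 ratio of −0.051 (−0.23 to 0.13). C1qc stood at 1161 and 1028 CPM, a log2 ratio of −0.18 (−0.35 to 0.003). For the sum of the 3 genes the log2 ratio was −0.094 (−0.21 to 0.02), and −0.028 in the barcodes with at least 3 macrophage markers. These class levels weight each barcode by its UMIs. With every barcode given equal weight the summed C1q was lower in KO, at a log2 ratio of −0.43 for the mean of CPM per barcode and −0.66 after thinning each barcode to 5156 UMIs, which left out 11 KO barcodes.

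The class II genes were higher in the KO library by their class sums, and the WT sums rested on 1 barcode. Cd74, on chromosome 18 at 60803848 to 60812652, had 497 UMIs in 14 of 26 WT barcodes (53.8%) and 2096 UMIs in 51 of 81 KO barcodes (63.0%). Its level was 1527 CPM (1396 to 1667) in WT and 2615 CPM (2504 to 2729) in KO, a log2 ratio of 0.78 (0.63 to 0.92). H2-Aa had 186 UMIs in 9 WT and 619 in 39 KO barcodes, at 571.5 and 772.2 CPM. Its log2 ratio was 0.43 (0.20 to 0.68). H2-Ab1 had 92 UMIs in 8 WT and 288 in 41 KO barcodes, at 282.7 and 359.3 CPM and a log2 ratio of 0.35 (0.003 to 0.70). H2-Eb1 differed most in the share of barcodes, with 101 UMIs in 4 WT (15.4%) and 458 in 38 KO barcodes (46.9%). Its level was 310.3 CPM in WT and 571.4 CPM in KO, a log2 ratio of 0.88 (0.57 to 1.21). H2-Eb1 overlaps the gene Gm20513, which had 143 UMIs of its own, and reads of the overlap may have been assigned to either.

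A single WT barcode with 6422 UMIs held 647 of the 876 class II UMIs of the WT class, which is 73.9%. It carried 348 of 497 Cd74, 146 of 186 H2-Aa, 72 of 92 H2-Ab1 and 81 of 101 H2-Eb1 UMIs, together with 12 macrophage markers, 1 Mrc1 UMI and no C1q or Csf1r UMI. The next WT barcodes had 84 and 74 class II UMIs. In KO, 3 barcodes of the same kind, with at least 100 class II UMIs and no C1q, held 413, 389 and 311 UMIs, or 1113 of 3461. Dendritic cell markers had 2 UMIs in the WT barcode and 21 in the KO barcodes. No Csf1r UMI was found in any of the 4. Without the barcode richest in class II in each library, the log2 ratio of the summed class II genes went from 0.68 (0.57 to 0.79) to 2.41 (2.22 to 2.61). Among the 21 WT and 65 KO barcodes with a C1q UMI it was 2.09 (1.89 to 2.29). Both settings were chosen after seeing the data. Their intervals take each UMI as independent and do not cover variation between barcodes. In both, the WT barcodes with 84 and 74 class II UMIs still carried much of the WT sum. Thinning each barcode to 5156 UMIs turned the ratio of all barcodes from 0.68 to −0.092 (−0.23 to 0.05). This left out 11 KO barcodes and 0 WT barcodes. The KO barcode with 413 class II UMIs, which had 5038 UMIs in all, was left out, while the WT barcode with 647 was kept. The thinned ratio therefore does not show the effect of depth alone.

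Counting barcodes in place of UMIs is less open to 1 rich barcode. At least 10 Cd74 UMIs were found in 4 of 26 WT barcodes (15.4%, 4.36 to 34.9) and in 33 of 81 KO barcodes (40.7%, 29.9 to 52.2). Among the barcodes with at least 3 macrophage markers, all 4 class II genes were detected together in 3 of 24 in WT (12.5%, 2.66 to 32.4) and in 29 of 70 in KO (41.4%, 29.8 to 53.8). H2-Eb1 was detected in 4 of 24 and 38 of 70 of these barcodes, 16.7% and 54.3%. These barcodes had nearly the same median depth, 8467.5 UMIs in WT and 8138.5 in KO. The intervals of the Cd74 and 4-gene shares overlapped between the libraries, and how far shares vary between animals cannot be read from 1 library each.

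Most barcodes with at least 3 macrophage markers had both C1q and class II UMIs, and each group was common by itself. C1q was in 21 and class II in 16 of these WT barcodes, and in 65 and 52 of those in KO. Whether the groups went together more than this was not tested. Of the 24 WT barcodes with at least 3 macrophage markers, 14 had UMIs of both groups, 7 had C1q alone, 2 class II alone and 1 neither. Of the 70 in KO, 49 had both, 16 C1q alone, 3 class II alone and 2 neither. Median C1q counts were also read by the number of Cd74 UMIs. In WT, the median C1q count was 23.5 UMIs in the 4 barcodes with at least 10 Cd74 UMIs, 42 in the 10 with 1 to 9, and 43 in the 9 with C1q and no Cd74. In KO the medians were 21 UMIs (33 barcodes), 27.5 (18) and 29 (17). Barcodes with at least 10 Cd74 UMIs had the lowest median C1q in both libraries, but the groups were not made alike. The group with no Cd74 was limited to barcodes with C1q. C1q was found in 3 of the 4 WT and 30 of the 33 KO barcodes with at least 10 Cd74 UMIs. This favours a lower median in the latter, so no relation between the amounts is drawn from these few barcodes.

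**Figure D2:**
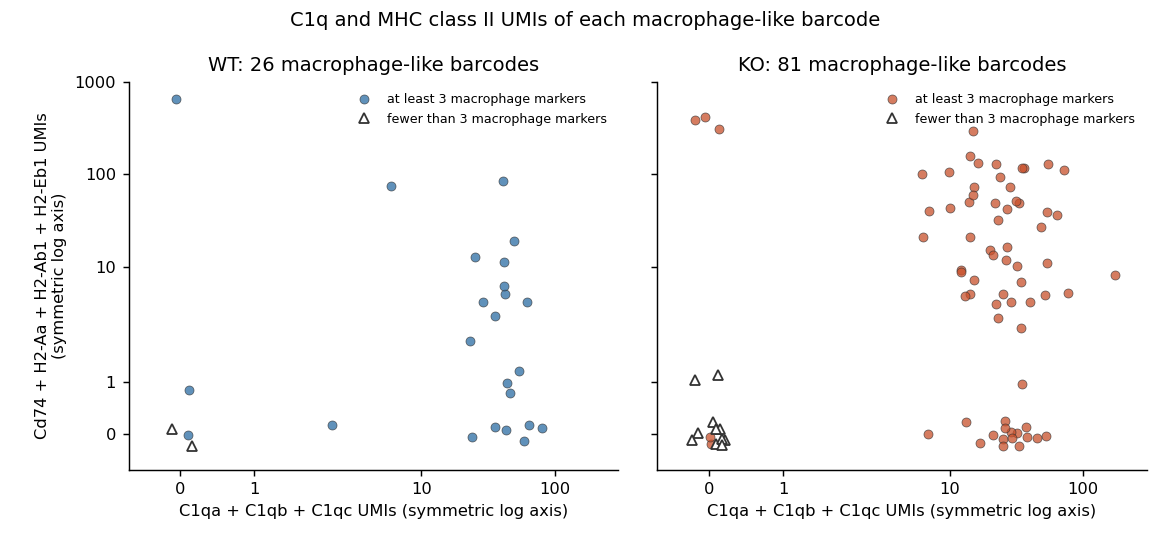
Summed C1q UMIs (horizontal) against summed MHC class II UMIs (vertical) of each macrophage-like barcode in WT and KO, on axes linear near 0 and logarithmic above, with triangles for barcodes with fewer than 3 macrophage markers. The WT barcode with 647 class II UMIs and the KO barcodes with 413, 389 and 311 lie at 0 on the C1q axis, and most other barcodes carry both groups.

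Csf1r, at 61100598 to 61132149 of chromosome 18, had 56 UMIs in 17 of 26 WT barcodes (65.4%) and 87 UMIs in 41 of 81 KO barcodes (50.6%). Its level was 172.1 CPM (130 to 223.4) in WT and 108.5 CPM (86.9 to 133.9) in KO, a log2 ratio of −0.66 (−1.17 to −0.15), or −0.60 in the barcodes with at least 3 macrophage markers. The lower level in KO kept its direction under all 14 alternatives tried. The largest count in 1 barcode was 6 UMIs in WT and 11 in KO, so no single barcode carried the sum. Outside the class, Csf1r had 4 UMIs in WT and 26 in KO. None of 2404 WT sperm-like cells had one, which allows a share of cells with a UMI of up to 0.125%. Csf1r overlaps Hmgxb3, which had 237 UMIs of its own.

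Mrc1 (chr2:14229392-14332057, plus strand) had 102 UMIs in 19 of 26 WT barcodes (73.1%) and 317 UMIs in 61 of 81 KO barcodes (75.3%). Its level was 313.4 CPM (255.5 to 380.4) in WT and 395.5 CPM (353.1 to 441.5) in KO, a log2 ratio of 0.34 (0.01 to 0.67) that became −0.42 after thinning and −0.12 at the finer clustering resolution of 0.8. Thinning left out 11 of the 81 KO barcodes and 0 WT barcodes. Csf1r and Mrc1 shared barcodes. All 17 WT barcodes with Csf1r also had Mrc1, as did 39 of the 41 in KO. Mrc1 and H2-Aa were found together in 9 WT and 33 KO barcodes, Mrc1 without H2-Aa in 10 and 28, and H2-Aa without Mrc1 in 0 and 6.

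**Figure D3:**
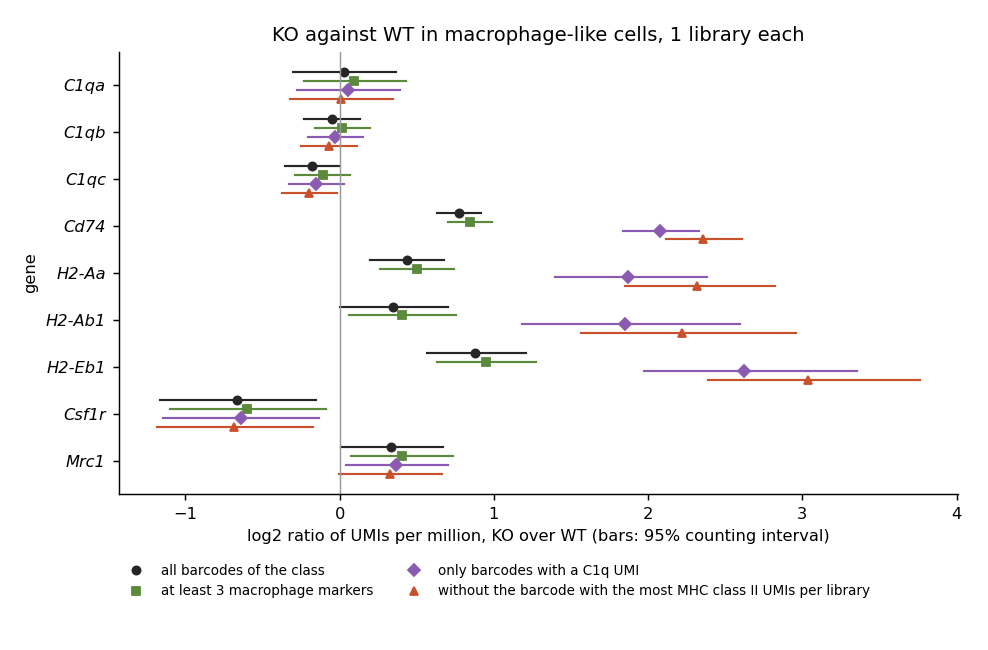
KO/WT log2 ratio of 9 genes in macrophage-like cells, with bars for the 95% counting interval, under 4 selections of barcodes. Thinning, equal weight per barcode and finer clustering, which put the summed C1q ratio further below 0, are not plotted. The C1q genes stay near 0 and Csf1r below it in all 4 selections shown. The class II genes move from between 0.35 and 0.88 to 1.85 or more without the richest barcodes or those with no C1q. The selections other than all barcodes were chosen after seeing the data.

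The members' changes in macrophage-like cells were then set beside those of all genes. The median log2 ratio over the 9652 genes with at least 10 UMIs in the class was 0.24, so a ratio near 0 lies a little under the middle of the table. The size rule asked that 25% of a class's cells in either library hold a UMI. Of 4576 genes that met this, 13.5% were at least 2-fold higher and 10.4% at least 2-fold lower in KO. Of the 9 members tested (Csf1 was too sparse), 0 were past 2-fold in either direction. With all barcodes, the median log2 ratio was −0.051 over the C1q genes and 0.61 over the class II genes. Without the barcode richest in class II in each library, a choice made after seeing the data, the 4 class II genes had log2 ratios from 2.22 to 3.04. That barcode held 647 of 876 class II UMIs in WT but 413 of 3461 in KO, so a higher ratio was built into the removal. The shares over all genes given above are for all barcodes and are no measure for these ratios.

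Other genes of the same pathways were read from lists. Their counts past 2-fold stand beside shares of 13.5% higher and 10.4% lower over all 4576 genes tested. No list was tested against these shares. Of 35 complement genes, 8 could be tested and 2 were past 2-fold higher, Cr1l (4 and 29 UMIs, log2 ratio 1.56) and the complement receptor Vsig4 (18 and 93 UMIs, 1.07). The properdin gene Cfp (40 and 44 UMIs, −1.16) and Itgb2 (16 and 14 UMIs, −1.49), the β chain of complement receptor 3, were past 2-fold lower. The list's median over 17 genes with at least 10 UMIs was 0.08. Of 29 antigen presentation genes, 11 could be tested, with the thiol reductase Ifi30 (8 and 48 UMIs, 1.28) and the CD74 ligand Mif (22 and 138 UMIs, 1.35) past 2-fold higher and 0 lower. The peptide exchanger H2-DMa (34 and 99 UMIs) stood at 0.24, the class II protease Ctss (162 and 432) at 0.12 and B2m, the light chain of class I (337 and 1038), at 0.32, with a list median of 0.24. Ciita, the switch of class II transcription, had 0 UMIs in WT and 5 in KO.

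Of 15 genes induced by or sensing interferon γ, 3 could be tested and 0 were past 2-fold, with a median of 0.87 over 9 genes. Cxcl9, a chemokine that interferon γ induces, had 0 UMIs in WT and 26 in KO, in 6 barcodes. Of 16 genes of CSF1 signalling and macrophage growth, 7 could be tested and 0 were past 2-fold, with the macrophage regulator Spi1 at −0.30 (23 and 46 UMIs). The median was 0.33. Of 16 scavenger receptor and lectin genes, 10 could be tested and 1 was past 2-fold higher, Mertk (5 and 27 UMIs, 1.13), which takes up dying cells. The median was 0.34, and the scavenger receptor Cd163 stood at −0.21.

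Outside macrophages, C1qb parted from C1qa and C1qc. In sperm-like cells, the class with elongating spermatids and sperm, C1qb had 1067 UMIs in 749 of 2404 WT cells (31.2%, 29.3 to 33.1) and 290 UMIs in 229 of 1311 KO cells (17.5%). These were 59.6% of all WT and 19.4% of all KO C1qb UMIs. C1qa had 2 and 3 UMIs and C1qc 4 and 8 in the same cells. With every cell thinned to 5156 UMIs, C1qb was seen in 18.7% of WT and 10.6% of KO sperm-like cells. C1qb stood at 41.97 CPM (39.49 to 44.57) in WT and 21.41 CPM (19.01 to 24.02) in KO, a log2 ratio of −0.97 (−1.16 to −0.78). No sperm-like WT cell had more than 5 C1qb UMIs. In this class, 6.12% of 2386 genes tested were at least 2-fold higher in KO and 0.671% at least 2-fold lower, and C1qb fell just short of the latter.

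In macrophage-like cells C1qb made up 42.9% (39.6 to 46.3) of the C1q UMIs in WT and 44.3% (42.0 to 46.5) in KO. In sperm-like cells it made up 99.4% (98.8 to 99.8) in WT and 96.3% in KO, and in round spermatid-like cells 96.9% in WT (312 of 322 UMIs) and 73.0% in KO (184 of 252). In KO Leydig-like and Sertoli-like cells the share was nearer to that of macrophage-like cells, at 54.9% (56 of 102 UMIs) and 52.2% (36 of 69). In WT Sertoli-like cells all 21 C1q UMIs were C1qb. Those WT cells also carried sperm markers at 160384 CPM against 34596 CPM in KO, and their C1qb level was 45.6 CPM in WT and 7.74 CPM in KO, a log2 ratio of −2.56 (−3.38 to −1.71).

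**Figure D4:**
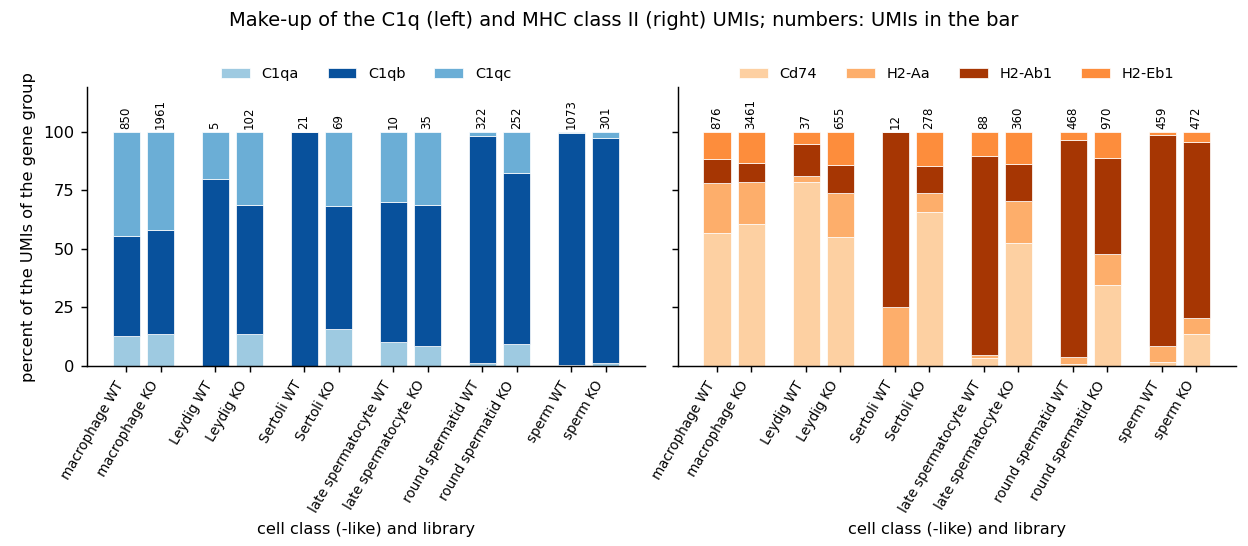
Make-up of the C1q UMIs (C1qa, C1qb, C1qc) and of the MHC class II UMIs (Cd74, H2-Aa, H2-Ab1, H2-Eb1) in 6 cell classes of each library, as percent of the group's UMIs, with the number of UMIs above each bar. C1qb makes up 42.9% and 44.3% of C1q in macrophage-like cells and 99.4% and 96.3% in sperm-like cells, and H2-Ab1 grows from 10.5% and 8.32% of class II to 90.2% and 75.0%.

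C1qb differed widely between the spermatid and sperm clusters. Among these it was lowest in the round spermatid-like cluster led by Gm6588 (0.517 CPM in WT and 1.36 in KO). It stood at 23.1 and 11.6 CPM in the round spermatid-like cluster led by Gm30302. In the sperm-like cluster led by the transition protein gene Tnp2 it was 31.8 and 22.6 CPM, and in the one with the protamine gene Prm1 41.9 and 23.5 CPM. It was highest in the cluster with Spem2 and Tssk6, at 76.1 CPM (68.6 to 84.2) in WT and 39.6 CPM (29.1 to 52.6) in KO. KO was lower than WT in each of the 4 sperm-like clusters, by log2 ratios from −0.94 to −0.49. The cluster with Spem2 and Tssk6 held 560 of 2404 WT but 155 of 1311 KO sperm-like cells. The ratio of the whole class, −0.97, was lower than that of any of these clusters.

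H2-Ab1 showed a second germ cell pattern. In round spermatid-like cells it had 434 UMIs in 285 of 1907 WT cells (14.9%) and 395 UMIs in 254 of 1774 KO cells (14.3%), at 13.2 and 14.2 CPM. In sperm-like cells it had 414 UMIs in 329 WT cells (13.7%) and 354 UMIs in 265 KO cells (20.2%), at 16.3 and 26.1 CPM. The log2 ratio was 0.10 in the former and 0.68 (0.47 to 0.89) in the latter. The make-up of the sperm-like class also differed, and its cluster richest in H2-Ab1 held 536 of 2404 WT but 483 of 1311 KO sperm-like cells. Within the 4 sperm-like clusters the ratios were lower, at 0.32 (−0.10 to 0.73), 0.52 (0.23 to 0.80), 0.18 (−0.53 to 0.86) and 0.55 (−0.44 to 1.46), and only that of the H2-Ab1-rich cluster had an interval above 0. Its highest germ cell level was in early spermatocyte-like cells, at 60.5 CPM (35.2 to 96.8; 17 UMIs) in WT and 48.0 CPM (34.6 to 64.8; 42 UMIs) in KO. Late spermatocyte-like cells had 75 and 56 UMIs.

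Among spermatids, H2-Ab1 was highest in the cluster led by Gm30302, at 43.6 CPM (38.1 to 49.6) in WT and 42.4 CPM (36.8 to 48.7) in KO. It fell to 8.05 and 11.8 CPM in the cluster with Spem2 and Tssk6, where C1qb was highest. Thus the germ cell maxima of the genes lay in different clusters. H2-Ab1 made up 10.5% of the class II UMIs of macrophage-like cells in WT and 8.32% in KO, against 90.2% and 75.0% in sperm-like cells. In round spermatid-like cells it made up 92.7% in WT (434 of 468 UMIs) but 40.7% in KO (395 of 970), where Cd74 had 335 UMIs. KO Leydig-like and Sertoli-like cells, at 12.2% and 11.5%, were close to the macrophage-like make-up.

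**Figure D5:**
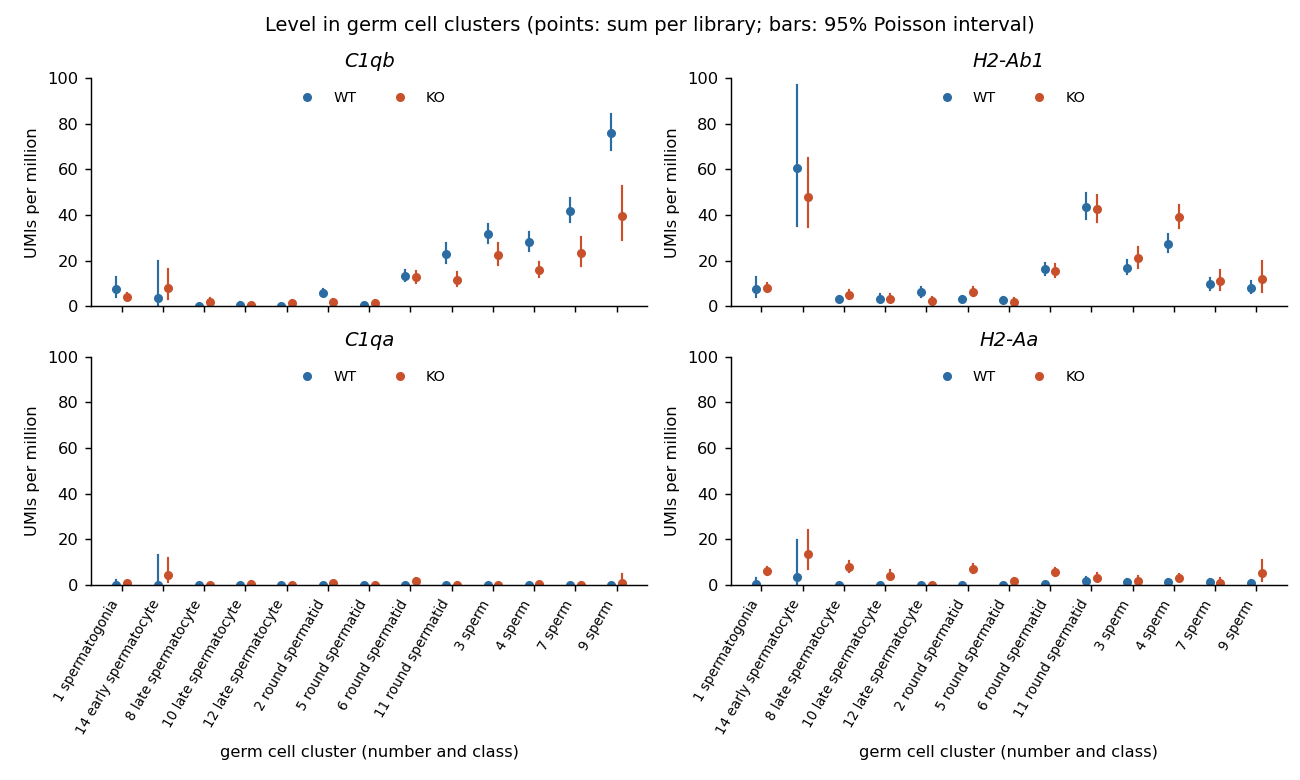
Level in CPM, with 95% Poisson intervals, of C1qb, H2-Ab1, C1qa and H2-Aa in 13 germ cell clusters of WT and KO. C1qb reaches 76.1 CPM in WT and 39.6 CPM in KO in the sperm-like cluster with Spem2, H2-Ab1 reaches 60.5 and 48.0 CPM in early spermatocyte-like cells and, among spermatids, 43.6 and 42.4 CPM in the cluster led by Gm30302, and H2-Aa reaches 13.7 CPM in KO early spermatocyte-like cells.

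Cd74 outside the macrophage-like class was largely in barcodes that also had macrophage markers. It had 43 UMIs outside the class in WT, 29 of them in 1 Leydig-like barcode, and 1354 in KO. In KO, 24 barcodes outside the class had at least 5 Cd74 UMIs, and they held 1130 (83.5%) of these UMIs. By class they were 7 round spermatid-like, 6 Leydig-like, 3 spermatogonia-like, 2 endothelial-like and the rest others. At least 3 macrophage markers were found in 21 of the 24 and a C1q UMI in 18, and Scrublet called 0 of them doublets. The same 24 barcodes held 76.5% of the H2-Aa, 68.2% of the H2-Eb1 and 46.8% of the C1qc UMIs outside the class in KO, but 16.2% of the H2-Ab1 and 14.5% of the C1qb UMIs. Whether they were doublets of a macrophage and another cell was not tested. The KO endothelial-like cells were an exception, with the highest Cd74 level outside the macrophage-like class, 322.9 CPM (51 UMIs in 5 of 24 cells). H2-Aa had 10 UMIs there and H2-Eb1 9. These cells had 0 C1q UMIs, and 0 of them had at least 3 macrophage markers. The WT class held 1 endothelial-like cell.

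Mrc1 had a second site in Sertoli-like cells, the nurse cells of the tubule. It had 21 UMIs in 10 of 48 WT cells (20.8%) and 484 UMIs in 245 of 468 KO cells (52.4%), at 45.6 CPM (28.2 to 69.7) and 104 CPM (94.9 to 113.7). The median depths were 8326.5 and 9147 UMIs per cell, and after thinning the shares were 12.5% and 35.2%. The log2 ratio was 1.19 (0.56 to 1.89), and 1.18 without barcodes that had at least 3 macrophage markers. Of 5020 genes tested in this class, 40.5% were at least 2-fold higher in KO and 18.3% at least 2-fold lower, and Mrc1 was past the former and C1qb past the latter. Sertoli markers stood at 13101 CPM in WT and 30450 CPM in KO, a shift of nearly the same size as that of Mrc1, and its part in the Mrc1 value was not tested. In order of level Mrc1 was highest in macrophage-like, then Sertoli-like cells, with intervals that did not overlap. It had 2 UMIs in the 24 KO endothelial-like cells (12.7 CPM) and was at most 2.43 CPM in every other class, and early spermatocyte-like cells had 0 UMIs in both libraries.

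Csf1, the ligand of Csf1r (chr3:107741048-107760469, minus strand), came from Leydig-like cells, the androgen producers that adjoin testicular macrophages. It had 25 UMIs in 18 of 94 WT cells (19.1%) and 357 UMIs in 270 of 1171 KO cells (23.1%), which were 86.2% and 89.0% of all Csf1 UMIs. The level was 24.1 CPM (15.6 to 35.6) in WT and 34.8 CPM (31.3 to 38.6) in KO, a log2 ratio of 0.53 (−0.06 to 1.18). Thinned to 5156 UMIs, 12.8% and 15.7% of the cells had a UMI, at medians before thinning of 10004 and 7872 UMIs. Only the 24 KO endothelial-like cells came near this level, with 6 UMIs in 5 cells, 38.0 CPM (13.9 to 82.7), an interval that holds the Leydig-like level. In macrophage-like cells Csf1 had 0 UMIs in 26 WT barcodes, which allows a share of cells with a UMI of up to 11.5% and sets no limit on cells that express it below detection, and 3 UMIs in KO. Most UMIs of Csf1r and of Csf1 were thus in different classes.

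Genes with the profile most like each member were ranked by Pearson's r of log2(CPM + 1) over 33 points, each a cluster in 1 library, which share library and depth and are a description only. P2ry12, Ctss and Tyrobp were most like C1qa (r from 0.98 to 0.99), Ctss most like C1qc (0.99) and Ms4a7 most like Csf1r (0.98), all of them genes of macrophages or myeloid cells. C1qb was most like Spi1 (0.95) and Cd33 (0.93), and not most like either C1q partner. Most of the 211 WT and 167 KO Spi1 UMIs lay outside macrophage-like cells, so the match with Spi1 is not one of a macrophage-restricted profile. Cd74 and H2-Eb1 were each other's closest (0.93). H2-Ab1 had no close match, the best being Pik3cg (0.77) and Ms4a6b (0.76). Mrc1 was most like Fcer1g (0.94), and Csf1 was most like Htra1 (0.99), which is no macrophage gene.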

How the data were processed

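The deposited files were UMI count matrices, genes by cell barcodes, 1 per library. Per the study's methods, the authors prepared them with the Singleron GEXSCOPE kit from testes of 12-week-old mice. Those methods speak of 3 animals per genotype while the study elsewhere speaks of 1 mouse each, and whether animals were pooled is not clear. The submitters' processing notes name STAR 2.5.3a for alignment, FastQC 0.11.7, fastp, and version 1.6.2 of featureCounts. The build stated is human, while the gene symbols are those of mouse, and the use of strand was not given in the sources used here. Reads of overlapping genes could therefore be misassigned. All barcodes had more than 500 genes (the lowest had 564), so that filter removed none, and the number of barcodes differs from the cell number the study gives.

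The libraries were integrated in Seurat 5.3.0 (2000 features, 20 anchor dimensions, 30 components, resolution 0.3). Clusters were named from marker lists that held no member, so class names were rebuilt here. Scrublet in scanpy 1.11.5 marked 243 WT and 348 KO barcodes, none of which were removed from the main values. UMIs were summed per class and library and divided by the class total (CPM). Sums carry exact Poisson, shares Clopper-Pearson, and log2 ratios exact conditional intervals at 95%, and a count of 0 was limited by 3 counts. These do not cover variation between barcodes or between animals. A gene was called past the size rule when its CPM differed at least 2-fold and a UMI was in at least 25% of cells of either library, and the procedure was tested on simulated data. Named genes were the 10 members, the list genes past the size rule or with a stated role, and the 3 genes most like each member. The gene lists (complement, antigen presentation, interferon γ, CSF1 and growth, scavenger and lectin) and members were chosen with earlier results of these data known. Alternatives changed the clustering, the scaling total (TMM factors from edgeR 4.0.16 among them), depth, filters and doublets. RefSeq promoters matched 6 of 10 members. Positions are from GENCODE on GRCm38.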

Additional observations from a re-analysis of the deposited data

Results flagged for a closer look

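A pair of members moved in opposite directions between the libraries in different cell classes, with counting intervals on either side of 0 or nearly so. None of these differences between classes was tested, since each genotype had 1 library. The KO/WT log2 ratio of C1qb was 2.04 in late spermatocyte-like cells (6 UMIs in WT and 21 in KO), −0.53 in round spermatid-like cells, −0.97 in sperm-like cells and −2.56 in Sertoli-like cells. In the late spermatocyte-like cells C1qc had a like ratio, 2.11 (3 and 11 UMIs), and Cd74 had 3 and 189 UMIs. Of the 21 KO C1qb UMIs, 12 lay in 3 cells of the cluster led by Nutm2. Whether macrophage RNA or doublets had a part in this value was not tested. The ratio of H2-Ab1 was 0.35 in macrophage-like cells and 0.68 in sperm-like cells but −1.51 in Sertoli-like cells, where it had 9 UMIs in WT and 32 in KO. Sertoli-like cells carried sperm markers at 160384 CPM in WT against 34596 CPM in KO. In these WT cells C1qb made up 21 of 21 C1q UMIs and H2-Ab1 9 of 12 class II UMIs. The part of germ cell RNA in the Sertoli-like ratios of both genes was not tested. Within the 4 sperm-like clusters the H2-Ab1 ratio was 0.18 to 0.55, below that of the whole class, and the cluster richest in H2-Ab1 held a larger share of the KO than of the WT sperm-like cells. In the same clusters the C1qb ratio was −0.94 to −0.49, nearer to 0 than that of the class, and the cluster richest in C1qb held a smaller share of the KO sperm-like cells.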

How the results depend on the processing

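No paired analysis was possible because each genotype had 1 library. The summed class II and Mrc1 ratios changed sign in the settings named here. The summed C1q ratio of −0.094 (log2) became −0.57 at clustering resolution 0.8, −0.26 without integration, −0.27 with the members left out of the clustering, −0.66 with cells thinned to 1 depth and −0.43 as the mean of CPM per cell. The summed class II ratio of 0.68 became 0.39, 0.53, 0.56, −0.092 and 0.27 under the same settings, 2.41 without the barcode richest in class II in each library and 2.09 in barcodes with a C1q UMI. The last 2 settings, and the barcodes with at least 3 macrophage markers, were chosen after seeing the data. Mrc1 went from 0.34 to −0.12 at resolution 0.8 and to −0.42 after thinning. In the class, thinning left out 11 KO barcodes, the one richest in class II among them, and 0 WT barcodes. The thinned ratios therefore do not show the effect of depth alone. The number of genes past 2-fold in macrophage-like cells, 620 higher and 475 lower in KO, became 272 and 307 at resolution 0.8, 1923 and 1387 with a UMI in at least 10% of cells, and 7682 and 3587 with no filter. The lower count alone moved to 306 without integration and 308 with the members left out. No other scaling total moved these ratios or that of Csf1r past their counting intervals. Of the other values, all for single genes or classes, 75 moved beyond their counting interval and 245 did not. At resolution 0.8 the class grew to 48 WT and 214 KO barcodes. The WT class of 26 barcodes limits every macrophage value.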
